A study of Homo sapiens with 4 samples.

Results

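The mRNAs of the G1 cyclins, their kinases and their inhibitors were followed in FaDu cells, a human squamous carcinoma line of the hypopharynx, under normal and low oxygen and with or without knockdown of TET1. The group was 10 genes, taken by symbol from a table of 62077 rows and each found on 1 row at a chromosome locus: the D-type cyclins CCND1, CCND2 and CCND3, the kinases CDK4 and CDK6, the CIP/KIP inhibitors CDKN1A, CDKN1B and CDKN1C, the atypical cyclin CCNG2, and RB1. The study asked which transcripts depend on TET1, an enzyme that oxidises 5-methylcytosine in DNA, when tumour cells meet hypoxia. There were 4 groups of 1 library each: scrambled control under normoxia (N-scr), scrambled control under hypoxia (H-scr), TET1-si under normoxia (N-si) and TET1-si under hypoxia (H-si). All 4 cultures were FaDu cells grown in DMEM with serum at 5% CO2. Hypoxia was 1% O2 for 19 h. Per the study's methods the scrambled and TET1-si cells both carried a lentiviral pLKO.1-puro short hairpin RNA, against TET1 in the TET1-si cells. The study's supplement lists 1 TET1 hairpin. The study calls its FaDu cells clones, while its methods describe infection of the cells and no cloning step.

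Passage from G1 into S phase is controlled by D-type cyclins, which bind and activate CDK4 and CDK6. The active kinases phosphorylate the retinoblastoma protein encoded by RB1, which then releases E2F factors, and these switch on genes for DNA replication. CIP/KIP proteins restrain cyclin-dependent kinases and can also help D cyclins assemble with their kinases, and cells under low oxygen are known to slow or stop in G1.

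Each value is an FPKM, the number of fragments mapped to a gene scaled by its exon length and by the library's depth, as the authors deposited it. Each group had a single library, so there was no replicate error and no test, and every comparison is between 2 cultures. A change is the difference of log2(FPKM + 0.1), which understates the change of low genes, while folds in the text are plain ratios of FPKM. A gene was called higher or lower when it differed at least 2-fold and its mean across the libraries was 1 FPKM or more. Bracketed intervals of a change between 2 libraries are 95% exact Clopper-Pearson intervals of the log2 ratio, without the added 0.1. Those of a difference of 2 responses are instead 95% normal-approximation intervals, also without the added 0.1, which are rough where reads are few. Both were computed on approximate read numbers recovered from the steps in low FPKM values, and they cover counting error only. In all, 15057 genes passed the minimum, and so did the 10 genes of the group, with CDKN1C close to it at a mean of 1.10 FPKM and below 1 FPKM in both normoxia libraries.

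Recovered depths were between 22600000 and 24700000 reads per library. TET1 itself stood at 0.129 FPKM (N-scr), 0.331 (H-scr), 0.0493 (N-si) and 0.122 (H-si), about 11 to 77 reads, and was 2.63-fold lower in TET1-si cells under normoxia and 2.71-fold lower under hypoxia. Of 8 hypoxia genes used as a check, 7 were called higher under hypoxia in scrambled cells and 6 after TET1-si, and all 8 were above their normoxia level in both. All 8 epithelial markers were detected, but KRT14 was nearly lost after TET1-si. It stood at 42.1 FPKM (N-scr), 99.9 (H-scr), 0.487 (N-si) and 1.41 (H-si). The summed level of the 8 ran from 2588.9 FPKM in N-si to 10155.2 in H-scr, with 7450.6 in N-scr and 4510.9 in H-si. Keratins carried this sum, and EPCAM and CDH1 ran the other way after TET1-si, EPCAM at 154.5 FPKM (N-scr), 101.6 (H-scr), 205.9 (N-si) and 163.4 (H-si) and CDH1 at 179.3, 291.9, 266.9 and 398.9 in that order. The 6 fibroblast markers summed to between 5.30 and 37.2 FPKM, nearly all from COL1A1, with LUM and COL1A2 at 0 throughout. The 5 immune markers summed to between 1.68 and 3.62 FPKM, with CD3E at 0, and the 3 endothelial markers that could be read to between 8.93 and 48.4, mostly CDH5. The part of these marker differences in the results that follow was not tested. In bulk RNA, fewer cycling cells and less of a transcript per cell cannot be told apart.

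Under hypoxia in scrambled cells, 3 of the 10 genes were called higher and none lower. They were CCNG2, CDKN1C and CDKN1A, all of which encode proteins associated with a slowed or halted cell cycle. Among all genes tested, 12.9% were called higher and 4.53% lower. In TET1-si cells the same 3 genes were called higher and CDK4 was called lower, where 12.5% of all genes were called higher and 8.66% lower. The median change of the 10 genes was 0.01 in scrambled and -0.27 in TET1-si cells, beside 0.05 and 0.03 over all genes. By direction alone, 5 of the 10 were above their normoxia level in scrambled cells and 4 of 10 in TET1-si cells, beside 7969 and 7756 of all 15057 genes. The CIP/KIP genes and CCNG2 were above their normoxia level in both cell states, and CCND1, CCND2, CDK4, CDK6 and RB1 were below it, except that CCND2 in TET1-si cells turned to 0.08 after rescaling to TPM. CCND3 was above it in scrambled cells and below it in TET1-si cells.

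**Figure D1:**
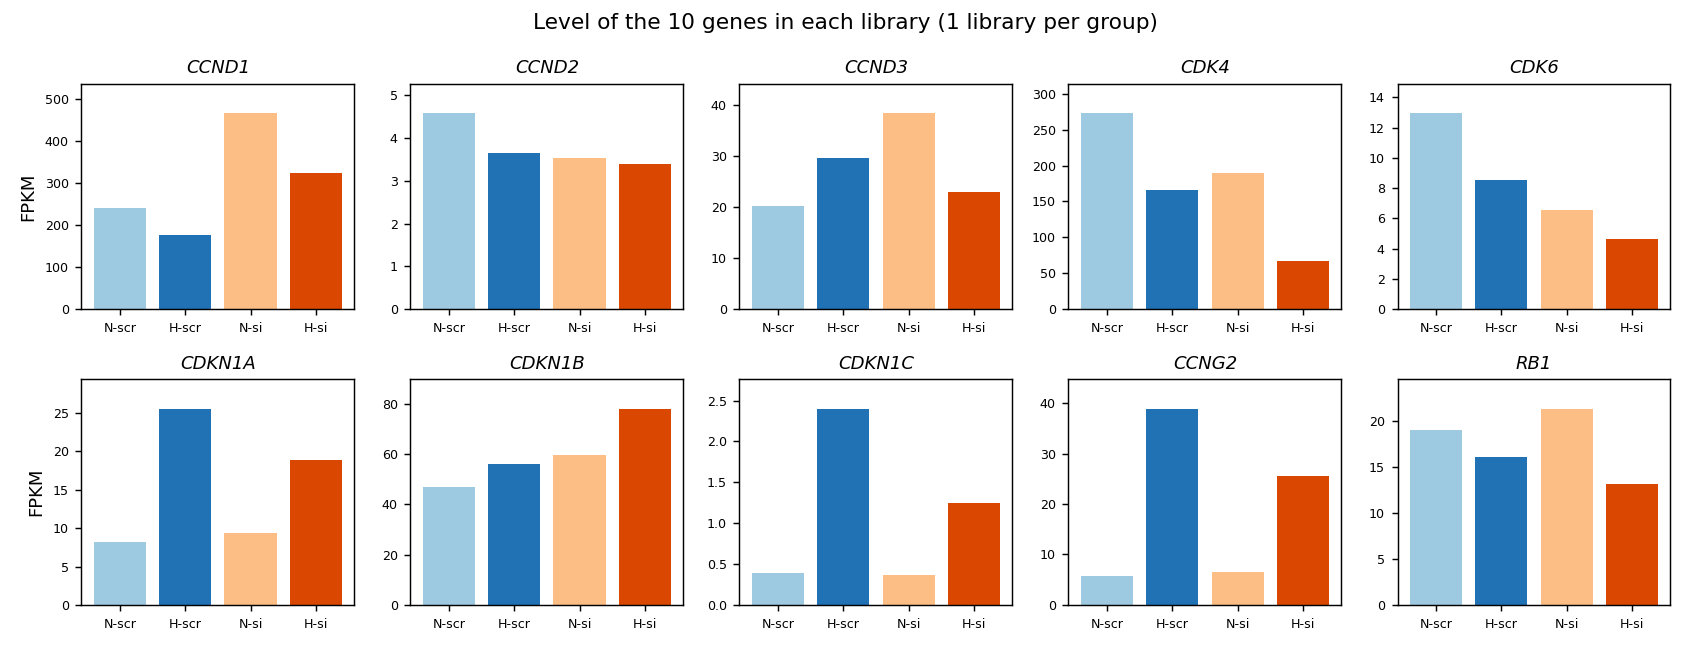
Level of each of the 10 genes in FPKM (y axis, from 0, its own scale per gene) in the 4 libraries, 1 bar per library with no error bar because each group has 1 library. CCND1 and CDK4 reach 466.7 and 273.1 FPKM while CDKN1C stays at or below 2.40, and CCNG2 stands at 38.9 and 25.6 FPKM in the hypoxia libraries against 5.75 and 6.46 under normoxia.

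CCND1 (ENSG00000110092, chr11:69455855-69469242 on the plus strand, hg19), a cyclin gene often amplified in squamous tumours, was by far the most abundant D cyclin. Its level was 241.9 FPKM (N-scr), 175.3 (H-scr), 466.7 (N-si) and 323.0 (H-si). Both TET1-si libraries thus lay above both scrambled ones, and within each the hypoxia library was the lower. After TET1-si it was 1.93-fold higher under normoxia (0.95, interval 0.93 to 0.97) and 1.84-fold higher under hypoxia (0.88, interval 0.85 to 0.91), just short of the 2-fold call in each. Hypoxia went with a change of -0.46 in scrambled and -0.53 in TET1-si cells. Of its exon bases, 497 of 4238 (11.7%) overlap LTO1 on the opposite strand, which stood between 274.0 and 320.4 FPKM, and since the sources do not state that counting used strand, reads of the pair cannot be told apart there.

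CCND3 (ENSG00000112576, chr6:41902671-42018095, minus strand) followed another order. Its level was 20.2 FPKM (N-scr), 29.6 (H-scr), 38.5 (N-si) and 23.1 (H-si). It was 1.46-fold higher under hypoxia in scrambled cells (0.55, interval 0.42 to 0.68) and 1.67-fold lower in TET1-si cells (-0.74, interval -0.85 to -0.62). Hypoxia thus went with more CCND3 in scrambled cells and with less after TET1-si, and the 2 responses differed by -1.28 (counting interval -1.46 to -1.12). Neither single response reached 2-fold, and TET1-si went with 1.90-fold more CCND3 under normoxia (0.93).

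CCND2 (ENSG00000118971, chr12:4382938-4414516, plus strand), the third D cyclin, was low and nearly level: 4.59 FPKM (N-scr), 3.66 (H-scr), 3.53 (N-si) and 3.40 (H-si). Its largest difference, -0.37 after TET1-si under normoxia (interval -0.55 to -0.21), was far from 2-fold, and H-si did not differ beyond counting error from N-si or from H-scr. Of its exon bases, 15.4% overlap ENSG00000285901 on the same strand and 2.49% overlap CCND2-AS1 on the opposite strand, which stood at or below 0.145 FPKM.

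CDK4 (ENSG00000135446, chr12:58142034-58149796, minus strand), the main partner of D cyclins in most cells, was the only gene of the 10 called lower in any comparison on the deposited scale. Its level was 273.1 FPKM (N-scr), 165.8 (H-scr), 190.2 (N-si) and 67.7 (H-si). Hypoxia went with 1.65-fold less CDK4 in scrambled cells (-0.72, interval -0.76 to -0.68) and 2.81-fold less in TET1-si cells (-1.49, interval -1.56 to -1.43). The 2 responses differed by -0.77 (interval -0.85 to -0.69), and H-si was the lowest library by a wide margin. After TET1-si CDK4 was 1.44-fold lower under normoxia and 2.45-fold lower under hypoxia (-1.29, interval -1.36 to -1.23), a call made for 8.35% of all genes.

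CDK4 shares 1078 of its 1865 exon bases (57.8%) with TSPAN31, a tetraspanin gene on the opposite strand. TSPAN31 stood at 29.4 FPKM (N-scr), 61.8 (H-scr), 45.8 (N-si) and 71.8 (H-si). The 2 genes thus ran in opposite directions under hypoxia, and without strand-aware counting their shared reads cannot be told apart.

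CDK6 (ENSG00000105810, chr7:92234235-92465908, minus strand), the other D cyclin kinase, was 14.7 to 29.1 times less abundant than CDK4 within a library. Its level was 12.96 FPKM (N-scr), 8.52 (H-scr), 6.53 (N-si) and 4.61 (H-si). It was lower after TET1-si at both oxygen levels, by 1.98-fold under normoxia (-0.98, interval -1.07 to -0.91) and 1.85-fold under hypoxia (-0.87, interval -0.99 to -0.79), just outside the 2-fold call in the first. Its hypoxia responses, -0.60 in scrambled cells and -0.49 after TET1-si, differed by 0.11 with a counting interval that includes 0 (-0.03 to 0.23). Its antisense partner CDK6-AS1, which shares 0.737% of the exon bases, stood at or below 1.58 FPKM.

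CDKN1A (ENSG00000124762, chr6:36644305-36655116, plus strand) encodes p21, the inhibitor induced by p53 and other stress signals. Its level was 8.22 FPKM (N-scr), 25.6 (H-scr), 9.35 (N-si) and 18.9 (H-si). Both hypoxia libraries lay above both normoxia libraries, by 3.11-fold in scrambled cells (1.62, interval 1.46 to 1.81) and 2.02-fold in TET1-si cells (1.00, interval 0.84 to 1.18), the latter just inside the call and at 0.91, short of it, after median-of-ratios scaling. The 2 responses differed by -0.62 (interval -0.86 to -0.39).

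CDKN1C (ENSG00000129757, chr11:2904443-2907111, minus strand) encodes p57, an imprinted inhibitor. Its level was 0.387 FPKM (N-scr), 2.40 (H-scr), 0.364 (N-si) and 1.24 (H-si), on about 14, 92, 14 and 44 reads. Both hypoxia libraries were again the higher, by 6.20-fold in scrambled (2.36, interval 1.79 to 3.54) and 3.41-fold in TET1-si cells (1.53, interval 0.88 to 2.76). With so few reads the difference of the 2 responses was -0.83 with an interval from -2.05 to 0.33, so no difference was detectable at this depth.

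CDKN1B (ENSG00000111276, chr12:12867992-12875305, plus strand) encodes p27, whose protein is mostly controlled by its degradation. Its level was 46.9 FPKM (N-scr), 56.2 (H-scr), 59.9 (N-si) and 78.1 (H-si). It was the most abundant CIP/KIP mRNA in every library. Hypoxia and TET1-si each went with slightly more of it, by between 0.26 and 0.47 in the 4 comparisons, with no call, and H-si was the highest.

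CCNG2 (ENSG00000138764, chr4:78078304-78354542, plus strand, a locus of 276239 bp) encodes cyclin G2, an atypical cyclin linked to cell cycle arrest rather than to kinase activation. Its level was 5.75 FPKM (N-scr), 38.9 (H-scr), 6.46 (N-si) and 25.6 (H-si). Hypoxia went with 6.76-fold more in scrambled cells (2.74, interval 2.64 to 2.87) and 3.95-fold more in TET1-si cells (1.97, interval 1.87 to 2.10), and the 2 responses differed by -0.77 (interval -0.93 to -0.61). After TET1-si it was 1.52-fold lower under hypoxia (-0.60) and 0.17 higher under normoxia, where its direction reversed under upper-quartile scaling.

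RB1 (ENSG00000139687, chr13:48877887-49056122, plus strand), the target of the D cyclin kinases, spanned 1.62-fold over the libraries: 19.1 FPKM (N-scr), 16.1 (H-scr), 21.4 (N-si) and 13.2 (H-si). Hypoxia against normoxia gave -0.24 in scrambled and -0.69 in TET1-si cells, and the 2 differed by -0.45 (interval -0.58 to -0.32), with no call. After TET1-si it was 0.16 higher under normoxia, the sign of which reversed under 2 other scalings, and -0.28 under hypoxia.

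**Figure D2:**
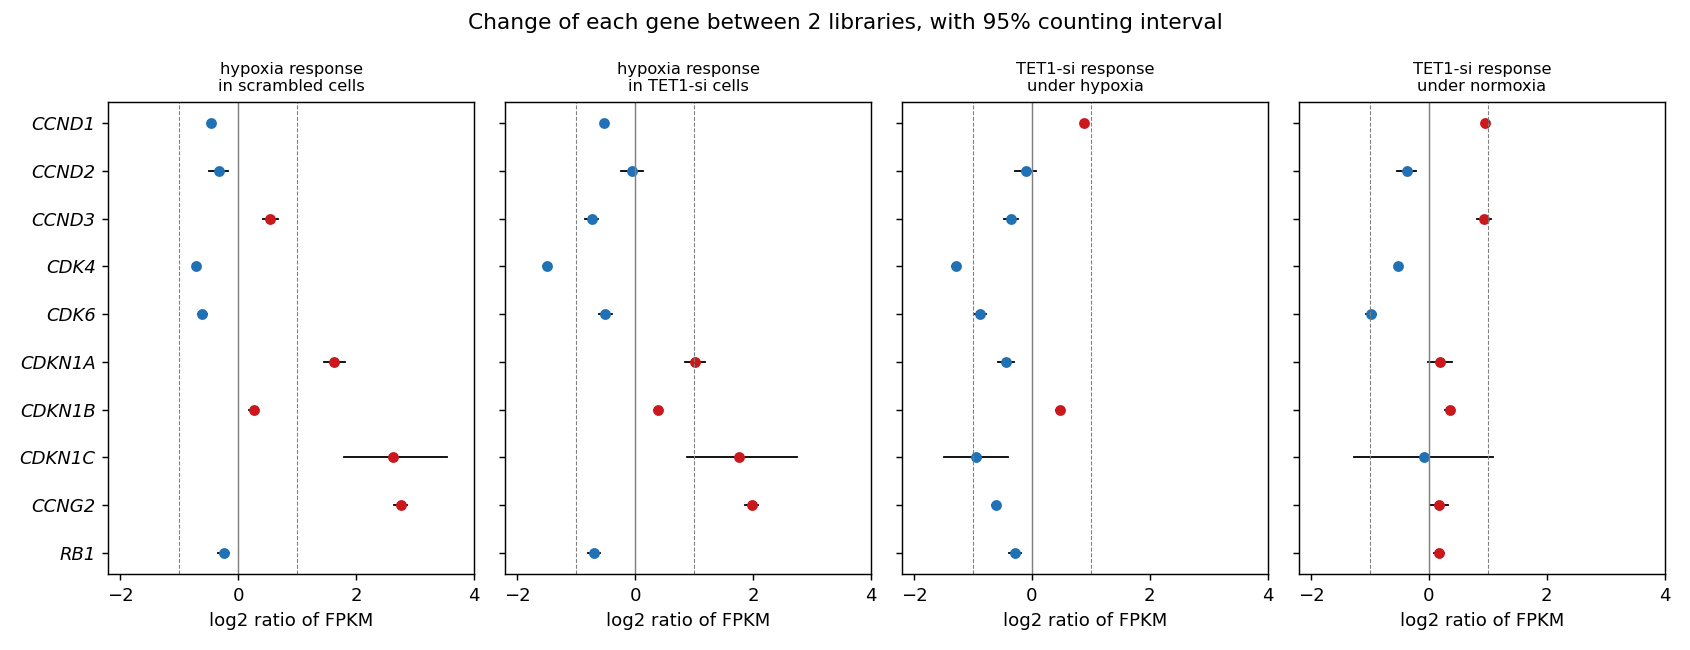
Log2 ratio of FPKM between 2 libraries (x axis, no added constant) for each of the 10 genes, in the 4 comparisons, with 95% counting intervals as bars, points red above 0 and blue below 0, and dashed lines at 2-fold. CCNG2, CDKN1C and CDKN1A lie to the right of the 2-fold line under hypoxia in both cell states, and CDK4 lies to the left of it in 2 panels.

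The 250 bases before the start site are shown for CCNG2, which had the largest hypoxia response of the 10, and for CDK4, the 1 gene called lower, since the E-box CACGTG, which holds the core letters ACGTG of the hypoxia-response element on both strands, was in both. They come from RefSeq on GRCh38.p14, chr4:77156957-77157206 on the plus strand for CCNG2 and chr12:57752311-57752560 on the minus strand for CDK4, and capitals mark the E-box.
CCNG2: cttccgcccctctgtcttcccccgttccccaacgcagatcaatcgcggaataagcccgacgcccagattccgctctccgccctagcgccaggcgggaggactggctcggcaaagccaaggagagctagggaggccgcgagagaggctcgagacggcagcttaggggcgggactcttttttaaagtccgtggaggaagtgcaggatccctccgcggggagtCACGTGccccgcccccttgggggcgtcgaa
CDK4: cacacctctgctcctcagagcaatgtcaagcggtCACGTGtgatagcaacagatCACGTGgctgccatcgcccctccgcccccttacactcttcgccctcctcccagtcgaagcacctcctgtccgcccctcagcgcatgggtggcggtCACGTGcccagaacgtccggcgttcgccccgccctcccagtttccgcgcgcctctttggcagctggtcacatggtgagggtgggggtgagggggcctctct
CDK4 held it 3 times, at bases -216, -196 and -101 from the start, and CCNG2 once at base -30. Within 300-base windows, CACGTG was found on either strand in 7.26% of 35116 promoters, and 0.094% held it at least 3 times, while the shorter core ACGTG was in 21.4%. The window of CDK6 also held it, past the start at base 30. Of the other motifs searched, GCGTG, the other form of the hypoxia-response core, was in 36.5% of all promoters and in those of CCND3, CDKN1A and CDKN1B, and the forkhead letters GTAAACA, in 3.42% of all promoters, in that of CCND3. The E2F letters TTTCCCGC and TTTGGCGC, in 1.63% and 0.652% of all promoters, were in none of the windows read. A match is a description of the letters and not a bound site. Windows were read for 6 genes, and those of CCND3 and CDKN1A lie at starts inside the gene. CCND1, CCND2 and CDKN1C had no entry, and the entry of RB1 begins inside the gene and was not used.

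After TET1-si under hypoxia, CDK4 was the 1 gene of the 10 called lower and none was called higher, where 8.35% of all genes were called lower and 12.0% higher. Under normoxia none of the 10 was called, where 12.1% of all genes were called higher and 5.56% lower. After median-of-ratios scaling CDK6 (-1.01) and CDKN1C (-1.03) also passed 2-fold under hypoxia and CDK6 (-1.14) under normoxia, with 10.6% and 7.41% of all genes then called lower. Under hypoxia 8 of the 10 were below their scrambled level, beside 6452 of all 15057 genes, with a median of -0.40 beside 0.10 over all genes. Under normoxia 6 of 10 were above it, beside 9086 of all 15057 genes, with a median of 0.17 beside 0.15. The genes just outside the normoxia call were CDK6 at -0.98, CCND1 at 0.95 and CCND3 at 0.93.

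Of the 10 genes, CCND3 was the 1 whose 2 responses to hypoxia differed by -1 or less on the log2 scale, against 7.86% of all genes, and none differed by 1 or more, against 4.87%. For 7 of the 10 the response in TET1-si cells was the lower, beside 8340 of all 15057 genes and all 8 hypoxia check genes. The median difference was -0.53 beside -0.06 over all genes and -0.76 over the check genes. Whether the smaller responses of CCNG2 and CDKN1A after TET1-si belong to a weaker hypoxia response in general was not tested. The study selected transcripts by 3 criteria together. Under hypoxia the scrambled level had to exceed 2 times the TET1-si level, and in scrambled cells hypoxia had to exceed normoxia. Under normoxia the TET1-si level could not exceed the scrambled one. With no minimum level, 2687 of 62077 rows (4.33%) met all 3. These rows outnumber the genes that the study reports, so its selection was not reproduced. The 10 genes all pass the minimum that 15057 genes pass, so the share of all rows is not a matched background for them. None of the 10 genes met all 3. The first was met by CDK4 alone, the second by 5 genes and the third by 4, and the share of all rows meeting each alone was not computed.

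Because FPKM is a level per length, the levels of different genes can be added within a library, and a ratio of such sums does not depend on how libraries are scaled. The sums were chosen after the values were seen. The D cyclins added up to 266.7 FPKM (N-scr), 208.5 (H-scr), 508.7 (N-si) and 349.5 (H-si), of which CCND1 made up 84.1% to 92.4%. The 2 kinases, with CDK4 sharing reads with TSPAN31 as above, added up to 286.1 (N-scr), 174.3 (H-scr), 196.8 (N-si) and 72.3 (H-si). The CIP/KIP inhibitors added up to 55.5, 84.2, 69.6 and 98.2 in the same order, of which CDKN1B made up 66.8% to 86.0% and CDKN1A 13.4% to 30.4%.

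The balance of CIP/KIP mRNA to CDK4 and CDK6 mRNA was lowest in N-scr and highest in H-si. The INK4 inhibitors, given below, were not part of it. The CIP/KIP sum over the kinase sum was 0.194 (N-scr), 0.483 (H-scr), 0.354 (N-si) and 1.36 (H-si). Hypoxia went with a 2.49-fold higher ratio in scrambled cells and a 3.84-fold higher one after TET1-si. The CIP/KIP sum rose 1.52-fold and 1.41-fold, while the kinase sum fell 1.64-fold and 2.72-fold, so the larger rise after TET1-si lay in the kinase sum. The D cyclins went another way: over the kinase sum they were 0.932, 1.20, 2.59 and 4.84, and the CIP/KIP sum over the D cyclin sum was 0.208, 0.404, 0.137 and 0.281, so that TET1-si went with fewer inhibitor transcripts per D cyclin transcript at both oxygen levels.

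**Figure D3:**
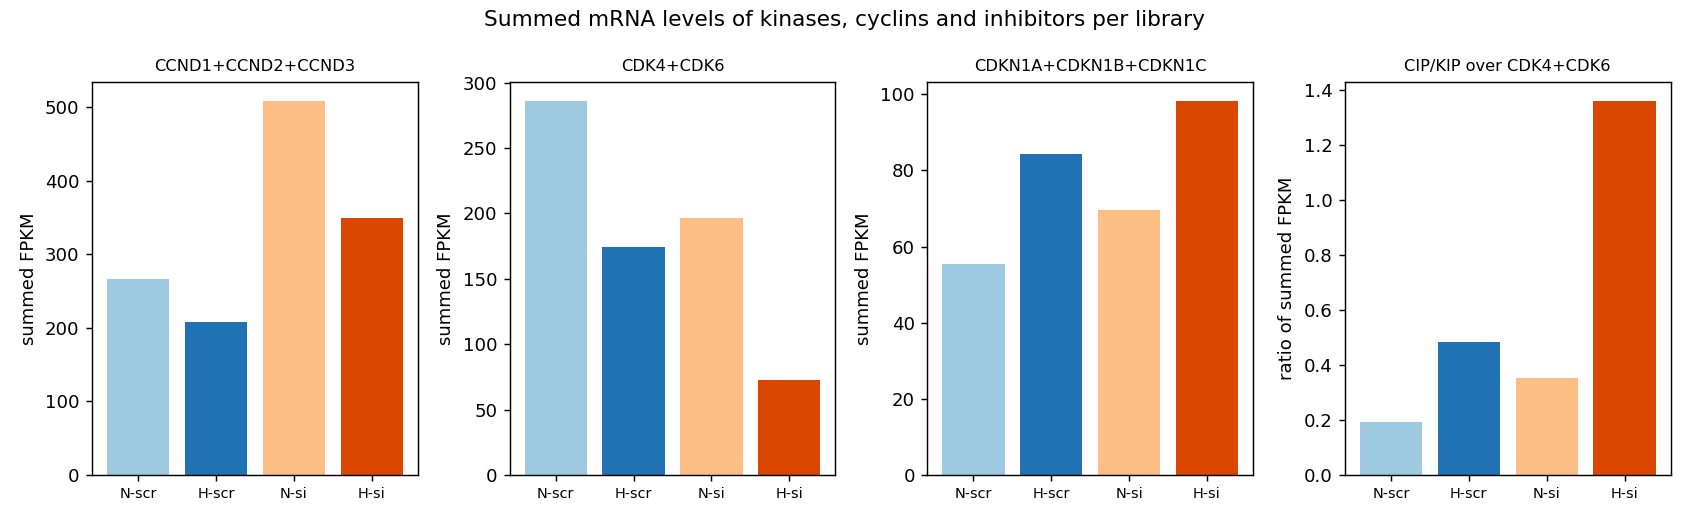
Summed FPKM of the D cyclins, of CDK4 and CDK6, and of the CIP/KIP inhibitors, and the ratio of the CIP/KIP sum to the kinase sum, each y axis from 0, 1 bar per library. The ratio of CIP/KIP to kinase mRNA runs from 0.194 in N-scr to 1.36 in H-si, while the D cyclin sum is highest in N-si at 508.7 FPKM.

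The cyclin E and cyclin A arm, which takes over from D cyclins at the start of S phase, had 6 of 8 genes below their normoxia level under hypoxia in scrambled cells and 7 of 8 in TET1-si cells. Of these, 1 was called lower in scrambled cells, CDC25A at -1.09, and 5 after TET1-si, where 4.53% and 8.66% of all genes were called lower, and the call of CDC25A was lost in TPM. The medians of the 8 were -0.55 and -1.62, beside 0.05 and 0.03 over all genes. CCNA2, the S-phase cyclin, was at 64.6 FPKM (N-scr), 34.1 (H-scr), 22.0 (N-si) and 5.22 (H-si). CCNE1, which activates CDK2, was nearly level under hypoxia in scrambled cells at 4.34 and 4.64 FPKM in N-scr and H-scr. In TET1-si cells it was at 7.65 and 4.80 FPKM in N-si and H-si (-0.66). After TET1-si under normoxia the arm was mixed, with 4 genes above and 4 below their scrambled level. There 1 was called higher and 1 lower, beside 12.1% and 5.56% of all genes, and the higher call was lost under median-of-ratios and upper-quartile scaling.

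All 13 E2F-responsive S-phase genes, which encode replication factors and enzymes of nucleotide supply, were below their normoxia level under hypoxia in both cell states. None was called in scrambled cells (median -0.61, range -0.86 to -0.41) and all 13 were called in TET1-si cells (median -2.02, range -2.85 to -1.62). Among all genes, 4.53% and 8.66% were called lower, with medians of 0.05 and 0.03. The difference of the 2 responses was -1 or lower for all 13 (12 after upper-quartile scaling), which was the case for 7.86% of all genes. RRM2, the small subunit of ribonucleotide reductase, was at 137.6 FPKM (N-scr), 75.5 (H-scr), 175.1 (N-si) and 24.2 (H-si). Under normoxia 8 of the 13 were below their scrambled level after TET1-si, and 1 was called lower, beside 5.56% of all genes. The S-phase genes were thus not uniformly lower after TET1-si without hypoxia. Under the 3 other scalings 6 to 9 of the 13 were below their scrambled level.

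Of the 12 pocket proteins and E2F-DP factors, 1 was called lower under hypoxia in scrambled cells, E2F8 at -1.06, and 6 after TET1-si, beside the same 4.53% and 8.66% of all genes, and the call of E2F8 was lost in TPM. E2F7, a repressor E2F, was at 12.0 FPKM (N-scr), 8.69 (H-scr), 11.0 (N-si) and 2.30 (H-si). RBL2, which encodes the pocket protein p130 of resting cells, went the other way, at 31.7 FPKM (N-scr), 59.8 (H-scr), 44.8 (N-si) and 90.5 (H-si). It was the 1 called higher under hypoxia in TET1-si cells (1.01), beside 12.5% of all genes.

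The INK4 inhibitors, which bind CDK4 and CDK6 directly, had all 4 members above their normoxia level in scrambled cells and above their scrambled level after TET1-si under normoxia. CDKN2B, which encodes p15, was at 3.66 FPKM (N-scr), 17.4 (H-scr), 14.7 (N-si) and 28.8 (H-si), and was the 1 called higher under hypoxia in scrambled cells (2.21). It was also called higher after TET1-si under normoxia (1.98). CDKN2C, which encodes p18, was at 10.1, 15.7, 31.3 and 34.6 FPKM in the same order and was called higher after TET1-si under normoxia (1.62) and hypoxia (1.13, short of the call under median-of-ratios scaling). Among all genes, 12.9% were called higher under hypoxia in scrambled cells, and 12.1% and 12.0% after TET1-si under normoxia and hypoxia. CDKN2D, which encodes p19, was at 7.40, 14.0, 9.69 and 6.98 FPKM, so that like CCND3 it was above its normoxia level under hypoxia in scrambled cells (0.91) and below it in TET1-si cells (-0.47).

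**Figure D4:**
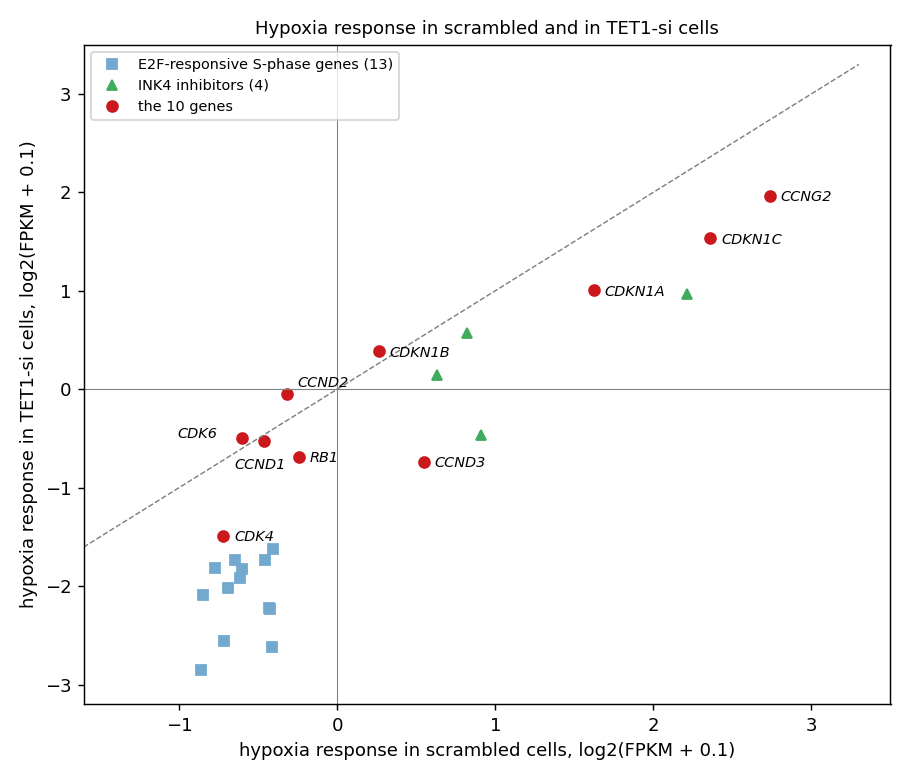
Hypoxia response in TET1-si cells (y axis) against that in scrambled cells (x axis), both as log2(FPKM + 0.1) differences, for the 10 genes (red circles), 13 S-phase genes (blue squares) and 4 INK4 inhibitors (green triangles), with the line of equality dashed. All 13 S-phase genes lie at or below -1.62 on the y axis and between -0.86 and -0.41 on the x axis, and CCND3 is the 1 red point with opposite signs.

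Changes after TET1-si were also set beside those of neighbouring genes, a step added once the values were known. For each gene, the 50 protein-coding genes nearest in genome order had median changes after TET1-si of -0.38 at CDK4 and -0.28 at CDK6 under normoxia, and -0.37 at both under hypoxia. Relative to these neighbours CDK4 was at -0.14 under normoxia and -0.93 under hypoxia, so that its 2-fold call under hypoxia was lost. Still, only 8% of its neighbours were lower than CDK4 under hypoxia, against 42% under normoxia. The share of all genes called was not recomputed on this scale. CDK6 was at -0.70 under normoxia and -0.50 under hypoxia, and 10.0% and 18.0% of its neighbours were lower still. CCND2, at -0.37 and -0.10 on its own, was at -0.82 under normoxia and -0.45 under hypoxia relative to neighbours with medians of 0.46 and 0.35. The neighbours of CDKN1B had medians of 0.52 and 0.47, above its own 0.35 under normoxia and level with its 0.47 under hypoxia. Those of CCND1 were at 0.25 and 0.05, beside its own 0.95 and 0.88.

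**Figure D5:**
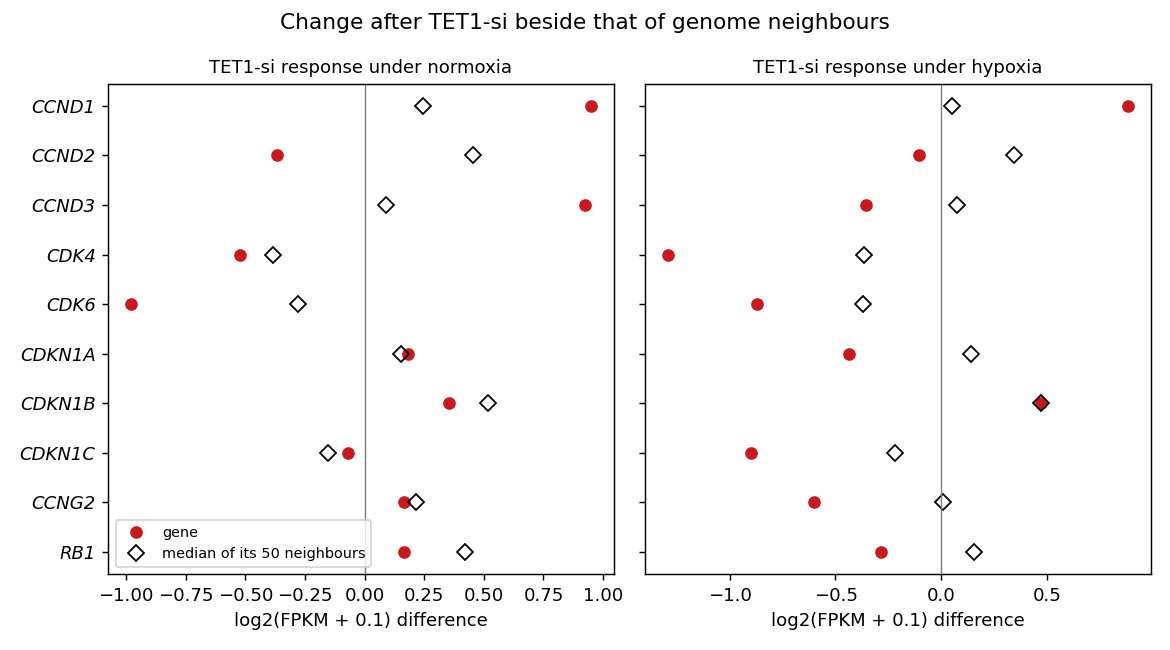
Change after TET1-si on the log2(FPKM + 0.1) scale (x axis) for each of the 10 genes (filled circles) and the median of its 50 nearest protein-coding genes (open diamonds), under normoxia and hypoxia. The diamonds of CDK4 and CDK6 lie below 0 in both panels and that of CDKN1B lies near 0.5 in both.

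For 8 of the 10 genes, those at a mean of at least 5 FPKM, the protein-coding genes with the most similar pattern over the 4 libraries were sought among 9465, by the Euclidean distance between log2(FPKM + 0.1) values centred on each gene's mean. With 4 libraries such likeness is loose, and how many genes lie within a distance of 0.5 differed widely. Only 6 genes (0.0634%) lay that near CCNG2, led by GBP2 at 0.126 and MUC1 at 0.142, and 87 (0.919%) lay that near CDKN1A, led by BTG1 at 0.131 and CKB at 0.145. For CDKN1B there were 2118 (22.4%) and for RB1 2268 (24.0%), so the patterns of these genes were common ones. CDK4 had 244, led by GPN3 at 0.0346 and MZT1 at 0.0792, and CDK6 had 401, led by SMCR7L at 0.0658 and NAA38 at 0.0832. CCND1 had 436, led by DDX47 at 0.0642 and C1orf198 at 0.0653, and CCND3 had 292, led by IAH1 at 0.136 and DCBLD1 at 0.146. Among the 8 genes, the closest to CCNG2 was CDKN1A, at a distance of 1.04.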

How the data were processed

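RNA-Seq libraries from FaDu cells were made from mRNA and sequenced as 100 bp reads (single end per the labels, paired end per the study's methods). The authors aligned reads to hg19 with TopHat and Cufflinks, named in the submitters' processing notes with versions not given in the sources used here, and deposited FPKM values per Ensembl gene, 1 column per library. All 4 columns were matched to samples by their labels. Values were compared as log2(FPKM + 0.1) with Python 3.11.15, pandas 2.3.3, numpy 2.4.6 and scipy 1.17.1. Depth was recovered from 6348 single-exon genes, where 97.0% to 97.7% of low values were whole reads within 0.05 of a read, and read numbers used GENCODE canonical transcript lengths less a median offset of 214 bp, so they are approximate. The steps were tested on simulated data. The 10 genes, the pathway lists and the examples from them (the largest change in each direction in H-scr against N-scr or H-si against H-scr) were chosen with earlier results of these data known. Of 62077 rows, 232 belong to 111 identifiers listed more than once, none of them the 10 genes. Alternatives were pseudocounts, library scaling, the minimum level, the fold threshold and, added after the data were seen, changes relative to genome neighbours. Promoters came from RefSeq on GRCh38.p14, which is not the build of the gene loci.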

Additional observations from a re-analysis of the deposited data

Results flagged for a closer look

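Some genes differed in opposite directions in the 2 arms of the design. With 1 library per group these differences were not tested, and groups of 1 allowed no search for libraries far from their group. CCND3 was 0.55 higher under hypoxia in scrambled cells but stood at -0.74 after TET1-si, and its change after TET1-si was 0.93 at normal and -0.36 at low oxygen, a difference of -1.28 either way. For CCNG2 the change after TET1-si was 0.17 at normal and -0.60 at low oxygen, a gap of -0.77, and for RB1 it was 0.16 and -0.28, a gap of -0.45, with the normoxia sign of both genes turning under another scaling.

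Among the pathway genes, CDKN2D differed by 0.91 under hypoxia in scrambled cells but -0.47 after TET1-si, and by 0.38 after TET1-si under normoxia and -0.99 under hypoxia, a difference of -1.38. TFDP2, an E2F partner, differed by -0.27 and 0.73 under hypoxia in scrambled and TET1-si cells, a difference of 0.99. KLF6, a zinc finger factor, differed by 1.25 and -0.36, a difference of -1.61. After TET1-si under normoxia and hypoxia, RRM2 differed by 0.35 and -1.64, a difference of -1.99, and TK1, thymidine kinase, by 0.86 and -0.35, a difference of -1.21.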

How the results depend on the processing

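Leaving out a library was not possible, since each group has 1. No paired analysis was possible because the groups have 1 library each and share fewer than 2 replicate numbers. Removing the pseudocount, rescaling to TPM, dropping the minimum mean FPKM or raising it to 5 left every count of called genes among the 10 within 1.5 times. With a pseudocount of 1, 1 of the 10 was called higher under hypoxia in TET1-si cells in place of 3. CDKN1A was then at 0.94 and CDKN1C at 0.72, and 8.56% of all genes were called higher. Under median-of-ratios scaling, 3 were called lower after TET1-si under hypoxia in place of 1, and 1 under normoxia in place of 0, beside 10.6% and 7.41% of all genes. Under hypoxia in TET1-si cells 2 were called higher in place of 3, with CDKN1A at 0.91, beside 10.8% of all genes. With that scaling 1 gene, CDKN1C, met the study's 3 criteria, and the share of all rows meeting them was not computed. Under upper-quartile scaling 2 and 1 were called lower after TET1-si under hypoxia and normoxia, beside 9.97% and 7.49% of all genes. Median-of-ratios scaling moved the median of all genes after TET1-si from 0.10 to -0.03 under hypoxia and from 0.15 to -0.0042 under normoxia, and the share of called genes that were higher from 59.0% to 47.0% and from 68.6% to 56.0%. At a 1.5-fold threshold, 2 were lower under hypoxia in scrambled cells in place of 0 and 3 in TET1-si cells in place of 1. After TET1-si 1 was higher and 4 lower under hypoxia in place of 0 and 1, and 2 were higher and 1 lower under normoxia in place of 0. The share of all genes past 1.5-fold was not computed, so these counts have no background beside them. Among the 10, directions turned, none of them called, for RB1 after TET1-si under normoxia (0.16) to -0.0017 and -0.0097 under median-of-ratios and upper-quartile scaling, for CCNG2 (0.17) to -0.0061 under upper-quartile scaling, and for CCND2 under hypoxia in TET1-si cells (-0.05) to 0.08 in TPM. Relative to genome neighbours after TET1-si under normoxia, CDKN1B came to -0.16, CDKN1C to 0.08, CCNG2 to -0.05 and RB1 to -0.26, and under hypoxia CDK4 came to -0.93, short of 2-fold. Low reads limit CDKN1C.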

Other observations

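Of 10 p53 targets other than CDKN1A, 3 were called higher under hypoxia in scrambled cells and 2 after TET1-si, beside 12.9% and 12.5% of all genes, with medians of 0.57 and 0.43. BBC3, a pro-apoptotic BH3 gene, was at 0.849 FPKM (N-scr), 4.90 (H-scr), 1.29 (N-si) and 3.41 (H-si). RRM2B, the p53-induced ribonucleotide reductase subunit, was at 25.9, 36.9, 86.4 and 124.3 FPKM in the same order, called higher after TET1-si under normoxia (1.74) and hypoxia (1.75). GADD45A was at 26.1, 20.3, 27.5 and 11.8 FPKM, and was the 1 target called lower under hypoxia in TET1-si cells (-1.21), beside 8.66% of all genes.

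Of 9 FOXO factors and targets other than CDKN1B and CCNG2, 5 were called higher under hypoxia in scrambled cells and 4 after TET1-si, beside the same 12.9% and 12.5% of all genes, with medians of 1.08 and 0.60. PIK3IP1, an inhibitor of phosphoinositide 3-kinase, was at 0.211 FPKM (N-scr), 9.65 (H-scr), 0.329 (N-si) and 2.61 (H-si). BCL6, a transcriptional repressor, was at 4.78, 8.64, 6.03 and 23.3 FPKM in the same order.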
